A study of Mus musculus with 4 samples.

Results

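Crypt stem and progenitor markers are genes whose transcripts are used to recognise the undifferentiated cells at the base of intestinal crypts. A set of 10 was examined here, chosen by symbol among the 46095 gene symbols of the table: Ascl2, Sox9, Bmi1, Olfm4, Smoc2, Cd44, Ephb2, Ephb3, Prom1 and Lrig1. They were measured in colon of C57BL/6 mice at postnatal day 21, in 2 wild type (WT) libraries and 2 from Esr2-/- mice (Esr2-KO), which lack the gene of estrogen receptor β. The labels name no treatment and do not give the deleted part of Esr2, the position within the colon or whether the libraries of a group come from separate mice, so that p-values measure the spread between libraries, which may be technical.

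Colon epithelium is renewed from stem cells at the crypt base, which divide, move up the crypt and differentiate into absorptive, goblet, enteroendocrine and tuft cells. Wnt signals from the surrounding stroma keep cells at the base undifferentiated by stabilising β-catenin, which acts with TCF/LEF transcription factors. Ascl2, Sox9, Cd44, Ephb2 and Ephb3 are known Wnt targets in this compartment. The set thus joins transcription and chromatin factors, secreted proteins and proteins of the cell surface. In whole tissue, fewer cells of a type and less RNA per cell cannot be told apart.

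Library totals were 30826790 to 33709643 counts. Esr2 itself had 21 and 13 counts in the WT libraries against 6 and 16 in those of Esr2-KO (edgeR adjusted p = 0.854), which neither checked nor contradicted the genotype labels. Transcripts of 18 pancreatic acinar genes, which encode digestive enzymes and their companions, took 18.9% of the counts of Esr2-KO 2. Their share was 0.157% in Esr2-KO 1 against 0.0364% and 0.0382% in WT, with Prss2 and Try4 at 0 in all 4 libraries. For all 16 tested acinar genes both Esr2-KO libraries were above both WT libraries (27% of all tested genes). Results resting on Esr2-KO 2 are also given without it, which leaves the smaller excess of Esr2-KO 1 in place. Most of the acinar share in WT 1 and Esr2-KO 1 was Sycn, with 6575 and 21970 counts, and Cela1, with 3763 and 17167. Whether the excess of Esr2-KO 1 came from pancreatic tissue was not tested. Epithelial markers were present in all libraries: the summed level of 10 pan-epithelial genes was 9151 and 8464 CPM in WT against 9951 and 10106 CPM in Esr2-KO, and that of 12 colonocyte genes was 11615 and 14055 CPM against 6964 and 6399 CPM (CPM, counts per 1000000 of a library total scaled with TMM, the trimmed mean of M-values).

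The promoters of the members with the largest differences between the groups are shown for the 3 that the RefSeq table holds, which are Cd44, Prom1 and Ascl2. Each window runs from 250 bases before to 50 bases after the annotated start in GRCm38.p6, is written 5′ to 3′ on the gene's own strand, which is the minus strand for all 3, and lies at chr2:102901616-102901915, chr5:44101687-44101986 (1 of 2 windows for Prom1) and chr7:142969215-142969514. Capitals mark matches, on either strand, to the TCF/LEF core CTTTG, the AP-1 motif TGANTCA or the GC box GGGCGG.
Cd44: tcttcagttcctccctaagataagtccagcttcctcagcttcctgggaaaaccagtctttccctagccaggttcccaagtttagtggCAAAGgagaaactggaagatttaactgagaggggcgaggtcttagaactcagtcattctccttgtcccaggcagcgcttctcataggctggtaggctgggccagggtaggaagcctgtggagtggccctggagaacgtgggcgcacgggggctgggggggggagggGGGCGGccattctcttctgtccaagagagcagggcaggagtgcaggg
Prom1: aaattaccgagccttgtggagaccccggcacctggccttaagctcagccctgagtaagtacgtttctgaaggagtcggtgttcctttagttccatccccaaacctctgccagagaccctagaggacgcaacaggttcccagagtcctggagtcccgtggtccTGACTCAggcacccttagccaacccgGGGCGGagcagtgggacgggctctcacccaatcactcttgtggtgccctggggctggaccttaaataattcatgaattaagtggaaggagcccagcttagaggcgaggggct
Ascl2: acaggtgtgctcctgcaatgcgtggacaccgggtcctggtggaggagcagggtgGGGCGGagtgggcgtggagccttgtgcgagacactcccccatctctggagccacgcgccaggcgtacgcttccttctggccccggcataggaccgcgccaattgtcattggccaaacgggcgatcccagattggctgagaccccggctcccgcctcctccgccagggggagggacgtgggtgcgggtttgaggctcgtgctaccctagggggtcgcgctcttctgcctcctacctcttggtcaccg

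The table held windows for 8 of the 10 members. The core CTTTG, bound by TCF/LEF factors, occurred in a window of 2 members (Cd44 and the other Prom1 window) and in 53.9% of 32851 promoters. GGGCGG occurred for 6 members and in 35.7% of promoters, and TGANTCA for Prom1 alone of the 8 and in 7.81%. The full palindromic estrogen response element (23 of 32851 promoters), its half-site AGGTCA (16.3%) and the CDX motif TTTATNG (10.9%) had no match in the members' windows. Both strands were searched in each case, and a match describes letters only.

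Esr2-KO colon had less mRNA of Cd44, the surface receptor for hyaluronan, and more of Smoc2, a secreted protein of the SPARC family. Cd44 fell by 0.91 ± 0.14 on the log2 scale (SE, n = 2 per group), to a level 0.533 times that of WT, and Smoc2 rose by 0.64 ± 0.12, or 1.56-fold. The other 7 tested members did not pass an adjusted p of 0.05, although Prom1 and Ascl2 had the largest differences of the set, at -1.45 ± 0.29 and 1.07 ± 0.27. Of the 10 members 9 were tested, since Olfm4 did not pass the filter on low counts. Thus 1 of 9 was higher and 1 of 9 lower, while 2.69% of the 17169 genes tested were called, 1.3% higher and 1.39% lower. Of all calls 48.3% were higher, a share that was 29.9% with library totals and 17.0% when libraries were scaled to the pan-epithelial list. The median log2 fold change was 0.12 over the 9 members (-0.040 with library totals and -0.067 with the pan-epithelial scaling) and -0.0031 over all tested genes. The groups did not overlap for 7 of the 9 members, against 54.7% of all tested genes. Both Esr2-KO values were above both WT values for 4 members (27% of all tested genes) and below them for 3 (27.7%). The count of 2 called members was 0 without WT 1 or without WT 2, and 4 with DESeq2 or with no filter on low counts, which added Ascl2 and Prom1. When Esr2-KO 2, with most of the pancreatic transcripts, was left out, Ascl2 was at 1.30, Smoc2 at 0.68, Cd44 at -0.75 and Prom1 at -1.04.

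**Figure D1:**
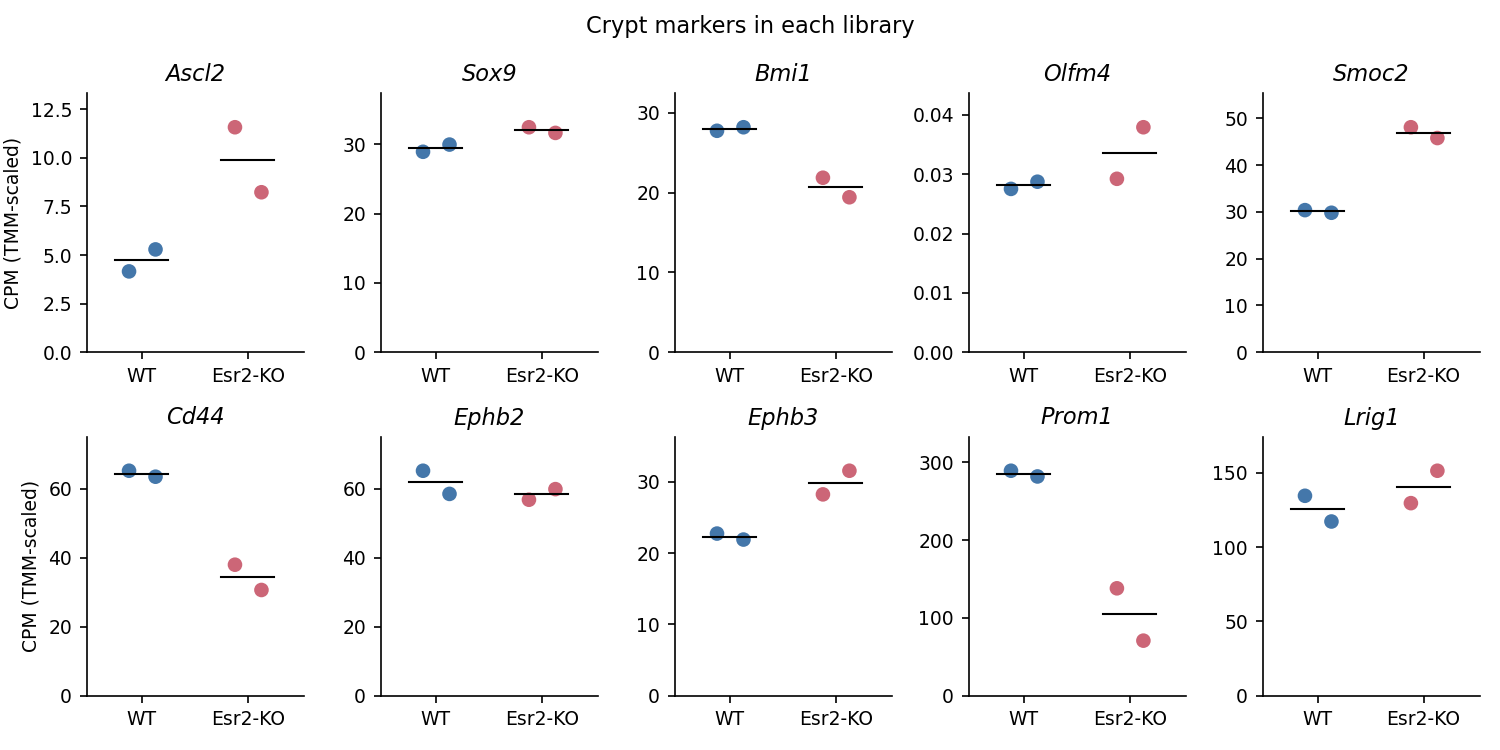
Level of each of the 10 members in CPM in the 4 libraries (points, replicate 1 on the left of each pair) with the mean of each group (line, n = 2). Cd44 and Prom1 lay lower in both Esr2-KO libraries, Smoc2 and Ascl2 higher, and Olfm4 rests on 1 count per library.

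**Figure D2:**
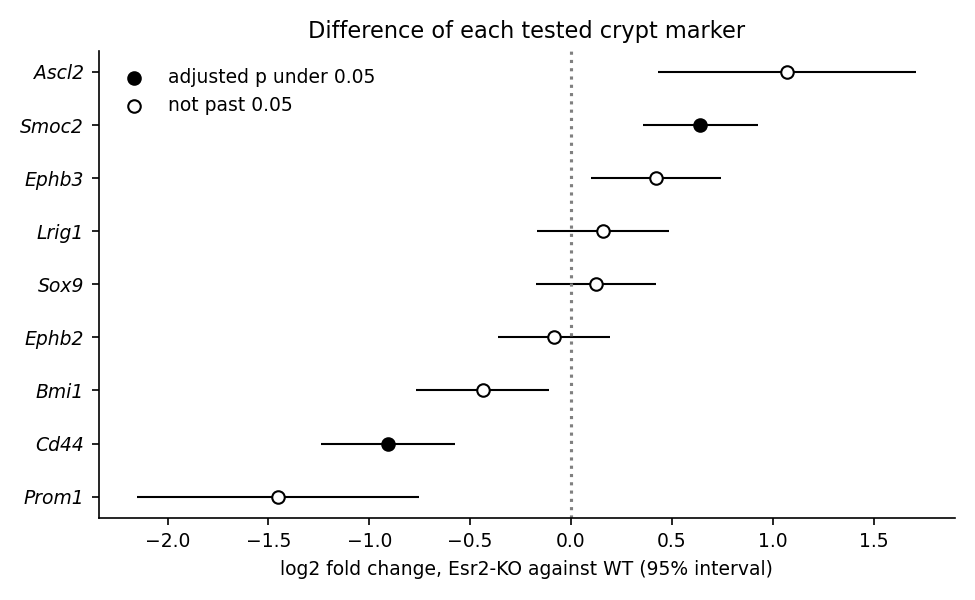
Log2 fold change of the 9 tested members, Esr2-KO against WT, with 95% intervals from edgeR's quasi-likelihood fit (n = 2 per group). Filled points passed an adjusted p of 0.05, namely Smoc2 at 0.64 and Cd44 at -0.91.

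Among the factors that act in the nucleus, Ascl2 had the largest log2 fold change and did not pass. Ascl2, a basic helix-loop-helix factor that controls the stem cell state of the crypt, reached 4.16 and 5.29 CPM in the WT libraries, compared with 11.6 and 8.23 CPM in the Esr2-KO libraries. Both Esr2-KO libraries were above both WT libraries, and the Esr2-KO libraries differed between themselves by a factor of 1.41. The log2 fold change was 1.07 with a 95% interval from 0.43 to 1.71 and an adjusted p of 0.0912 (two-sided quasi-likelihood test of edgeR, Benjamini-Hochberg adjusted, as for all adjusted p-values that name no other tool). It rests on 151 to 396 counts per library. Without Esr2-KO 2 it was 1.30. With DESeq2 on all 4 libraries the adjusted p was 0.0112.

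Sox9, an HMG-box factor of crypt progenitors that enteric glia and Paneth cells also use, gave 28.9 and 30.0 CPM in the pair of WT libraries and 32.5 and 31.6 CPM in the Esr2-KO pair. The groups did not overlap but lay close together, with a log2 fold change of 0.12, an interval from -0.18 to 0.42 and an edgeR adjusted p of 0.624. Its direction turned under both scalings that shift all genes (-0.040 with library totals and -0.067 with the pan-epithelial scaling). Bmi1, a subunit of Polycomb repressive complex 1 that has been used in mouse small intestine as a marker of reserve stem cells, measured 27.8 and 28.2 CPM in WT against 21.9 and 19.4 CPM in Esr2-KO. Both Esr2-KO libraries were below both WT libraries, the log2 fold change was -0.44 (-0.77 to -0.11), and the edgeR adjusted p was 0.145. Of 14 other tested genes listed for Polycomb repressive complex 1 in general, Pcgf relatives of Bmi1 included, none passed over all genes. Their median log2 fold change was 0.19. An unadjusted edgeR p under 0.05 occurred for 2 of the 14, against 20.6% of all 17169 tested genes, the share against which each such count is to be read. Relative to Sox9 in the same library, Ascl2 had 0.144 and 0.177 counts per Sox9 count in WT and 0.357 and 0.260 in Esr2-KO. That ratio does not depend on how libraries are scaled, and its groups did not overlap, as for Ascl2 itself.

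Of the secreted members, Olfm4 was at the limit of detection and Smoc2 rose. Olfm4, a glycoprotein that marks stem cells of the mouse small intestine, had 1 count in each of the 4 libraries, below the floor of 3 counts, which is 0.0826 to 0.114 CPM here. No fold is given for it. Smoc2, a matricellular protein that binds calcium and is enriched in stem cells of the mouse intestine, reached 30.4 and 29.8 CPM in the WT libraries, compared with 48.1 and 45.8 CPM in the Esr2-KO libraries. The groups were well apart, and the libraries of each differed by a factor of 1.02 in WT and 1.05 in Esr2-KO. The log2 fold change was 0.64 with a 95% interval from 0.36 to 0.93 and an edgeR adjusted p of 0.0476. That p lies close to the threshold: the call ended without WT 1 (0.219), WT 2 (0.150) or Esr2-KO 2 (0.0570), and under 5 other alternatives, with values of 0.45 to 0.68 over all 14. Fibroblasts can also express Smoc2: the summed level of 11 stromal genes was 2321 and 2398 CPM in WT against 2496 and 2543 CPM in Esr2-KO, none of the 11 passed, and 1 had an unadjusted edgeR p under 0.05 (20.6% of all genes). The part of stromal cells in the Smoc2 difference was not tested. None of the 6 tested relatives in the SPARC family passed, and none had an unadjusted edgeR p under 0.05.

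Cd44 had the smallest adjusted p of the set. Cd44, which binds hyaluronan and is displayed by crypt base cells as well as by leukocytes, gave 65.2 and 63.5 CPM in the pair of WT libraries and 38.0 and 30.6 CPM in the Esr2-KO pair. Both Esr2-KO libraries were far below both WT libraries, which differed from each other by a factor of 1.03. The log2 fold change was -0.91 with an interval from -1.24 to -0.57 and an edgeR adjusted p of 0.0305. The call held in 12 of 14 alternatives and ended without WT 1 (edgeR adjusted p = 0.129) or WT 2 (0.0806). Without Esr2-KO 2 the value was -0.75. The summed level of 14 leukocyte genes was 486 and 538 CPM in WT against 549 and 431 CPM in Esr2-KO, so that the groups overlapped. Among 10 tested partners of CD44 and enzymes of hyaluronan, Rdx rose (0.77 ± 0.13, edgeR adjusted p = 0.0385), which encodes radixin, a linker of membrane proteins to actin. Rdx measured 37.3 and 42.1 CPM in WT against 62.9 and 72.5 CPM in Esr2-KO, and its call ended without WT 1 (0.182), WT 2 (0.0737) or Esr2-KO 2 (0.0740), with library totals (0.124) and with the pan-epithelial scaling (0.0876). The other 9 partners did not pass.

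Prom1 encodes prominin-1 (CD133), a membrane glycoprotein of apical protrusions that marks crypt base cells and occurs in other epithelia. It reached 289 and 282 CPM in the WT libraries, compared with 138 and 70.7 CPM in the Esr2-KO libraries. Both Esr2-KO libraries were far below both WT libraries, and they differed between themselves by a factor of 1.95. The log2 fold change of Prom1 was -1.45 (95% interval -2.15 to -0.75) with an edgeR adjusted p of 0.0569, so that it just missed the threshold. Without Esr2-KO 2 it was -1.04, and without Esr2-KO 1 it was -2.01. In both fits the lone Esr2-KO library left is assumed to vary like the WT pair. With all 4 libraries Prom1 passed with DESeq2 (0.0226) and limma-voom (0.0440). A stretch of 424 exonic bases of Prom1 overlaps a gene on the opposite strand in GENCODE, and whether counting used the strand is not known here.

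Ephb2 and Ephb3, receptor tyrosine kinases that keep crypt cells in place by answering ephrin-B ligands, did not pass either. Ephb2 gave 65.1 and 58.4 CPM in the pair of WT libraries and 56.7 and 59.8 CPM in the Esr2-KO pair, with overlapping groups, a log2 fold change of -0.084 (-0.36 to 0.19) and an edgeR adjusted p of 0.724. Ephb3 measured 22.7 and 21.9 CPM in WT against 28.2 and 31.6 CPM in Esr2-KO, with both Esr2-KO libraries above both WT libraries. Its log2 fold change was 0.42 (0.10 to 0.75) and its edgeR adjusted p 0.152. The ratio of Ephb2 to Ephb3 counts was 2.86 and 2.67 in WT and 2.01 and 1.90 in Esr2-KO, without overlap, and this difference was not tested. Of 6 other class B receptors and ligands none passed and 1 had an unadjusted edgeR p under 0.05 (20.6% of all genes), namely the receptor gene Ephb6 at 1.48 ± 0.28 (edgeR adjusted p = 0.0521).

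Lrig1, a transmembrane protein that restrains ErbB receptors and marks stem and progenitor cells of the mouse colon, reached 135 and 117 CPM in the WT libraries, compared with 130 and 151 CPM in the Esr2-KO libraries. The groups overlapped, with a log2 fold change of 0.16 (-0.17 to 0.49) and an edgeR adjusted p of 0.557, and the direction turned with library totals (-0.019) and the pan-epithelial scaling (-0.028). Of 5 tested ErbB receptors and LRIG relatives none passed and 1 had an unadjusted edgeR p under 0.05 (20.6% of all genes), Erbb3 at -0.45 ± 0.14. In GENCODE 144 exonic bases of Lrig1 overlap a gene on the opposite strand. Within each library, Prom1 had 2.15 and 2.40 counts per Lrig1 count in WT and 1.06 and 0.467 in Esr2-KO. Likewise Cd44, called lower, had 2.15 and 2.13 counts per count of Smoc2, called higher, in WT and 0.790 and 0.669 in Esr2-KO. Such ratios restate the differences of their members and are no further test.

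Per kilobase of exon, the order of the members differed between the groups. For this the CPM were divided by the length of the union of exons in GENCODE, which need not be the annotation behind the counts. In WT, Prom1 led with 39.8 CPM per kb (40.3 and 39.3), followed by Lrig1 at 22.5, Cd44 at 9.50, Sox9 at 7.12, Bmi1 at 7.04, Ephb2 at 4.90, Smoc2 at 4.33, Ephb3 at 3.36 and Ascl2 at 2.91. Of these neighbours Sox9 and Bmi1 alone overlapped in their library values. In Esr2-KO, Lrig1 led with 25.2 CPM per kb (23.2 and 27.1), before Prom1 at 14.5 (19.2 and 9.85) and Sox9 at 7.75. Smoc2 at 6.75, Ascl2 at 6.10, Bmi1 at 5.20, Cd44 at 5.06, Ephb2 at 4.62 and Ephb3 at 4.50 followed, and neighbours among these 6 overlapped in their library values. Olfm4 was last in both groups, at 0.0095 and 0.011 CPM per kb.

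**Figure D3:**
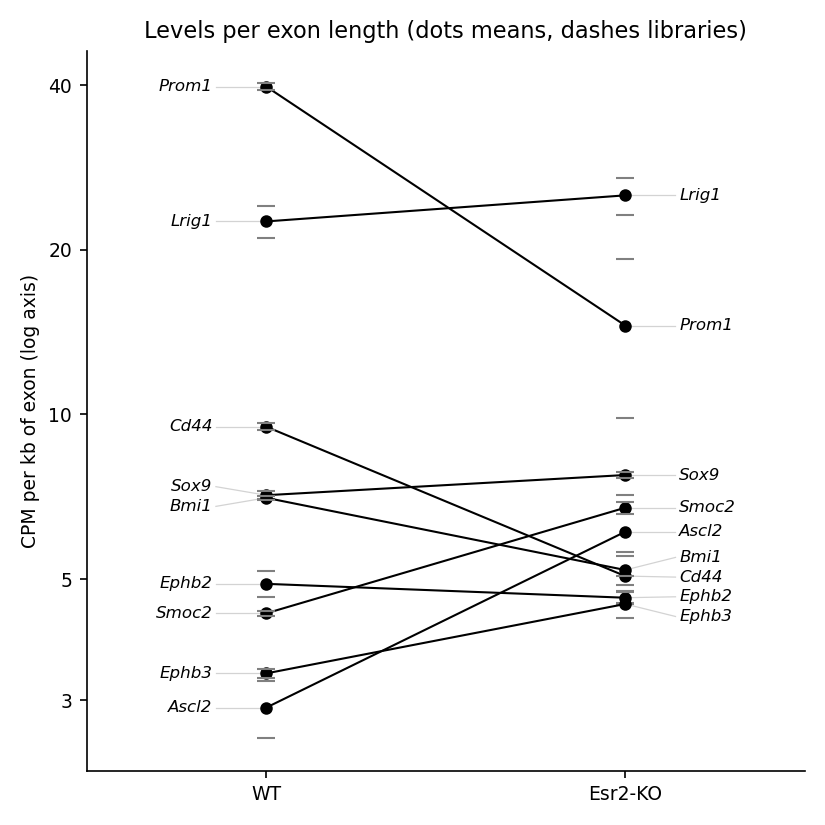
CPM per kb of exon (log axis) of the 9 members other than Olfm4, with group means (dots) and the 2 libraries of each group (dashes). Prom1 led in WT at 39.8 and came after Lrig1 in Esr2-KO at 14.5, and Ascl2 went from the lowest of the 9 to the middle.

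Other genes of the crypt base, Wnt response and progenitor state were compared as a list of 22, of which 20 were tested. In it 1 gene rose and 0 fell, the median log2 fold change was 0.11, and values ran from -1.01 for Msi1, which did not pass, to 1.04 for Ccnd2. Ccnd2, cyclin D2 of the entry into the cell cycle, gave 125 and 122 CPM in the pair of WT libraries and 245 and 264 CPM in the Esr2-KO pair, with 1.04 ± 0.12 and an edgeR adjusted p of 0.0199. Its call ended without WT 1 (0.0504) or with library totals (0.0508). Axin2, a Wnt target that feeds back on the pathway and was singled out after its values were seen, measured 31.9 and 32.2 CPM in WT against 34.9 and 28.9 CPM in Esr2-KO, with a log2 fold change of -0.0069 and an interval from -0.35 to 0.34.

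Of 20 tested proliferation genes 1 fell and 19 did not pass. All 20 had negative log2 fold changes, with a median of -0.86, and in 16 both Esr2-KO libraries were below both WT libraries (27.7% of all tested genes). The gene that fell was the mitotic kinesin gene Kif11 (-1.30 ± 0.23, edgeR adjusted p = 0.0415), whose call ended without WT 1 (0.138). The summed level of the 20 was 1375 and 981 CPM in WT against 708 and 616 CPM in Esr2-KO. The part of cell division in the values of Cd44 and Prom1 was not tested.

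Of the lists of differentiated cells and of proliferation genes, that of goblet cells differed most in its median between the Esr2-KO libraries. Against the WT mean of log2(CPM + 0.5), the median of 9 goblet cell genes was -0.054 in the first Esr2-KO library and -1.32 in the second, that of proliferation genes -0.68 and -1.08, and that of 5 tuft cell genes -0.62 and -0.96. The median of 7 enteroendocrine genes was lower in the first (-0.89 and -0.68), and that of colonocyte genes was -0.30 and -0.43. On the same scale Prom1 was at -1.05 and -2.01 and Cd44 at -0.75 and -1.06, so that both were lower in Esr2-KO 2. Smoc2 was at 0.67 and 0.60 and Sox9 at 0.14 and 0.10. The part of goblet and tuft cells in these values was not tested. None of the goblet or tuft cell genes passed, while 3 of 9 and 4 of 5 had an unadjusted edgeR p under 0.05, against 20.6% of all genes. Among enteroendocrine genes 0 of 7 rose and 2 fell, Gcg for proglucagon (-1.59 ± 0.18) and Tph1 of serotonin synthesis (-1.51 ± 0.23), with a median of -0.88. The call of Tph1 ended without WT 2 (0.0616). Among 12 colonocyte genes the sodium channel subunit gene Scnn1a rose (0.71 ± 0.13), and Cyp2c55 (-2.69 ± 0.21), Car1 (-2.11 ± 0.39) and Guca2b (-1.22 ± 0.20) fell, with a median of -0.37. The value of Cyp2c55 is uncertain, since reads may be shared with close relatives. The calls of Scnn1a and Guca2b ended without WT 1 (0.133 and 0.141) or WT 2 (0.140 and 0.0881), and those of Scnn1a and Car1 without Esr2-KO 2 (0.0803 and 0.0560) or with the pan-epithelial scaling (0.0783 and 0.0536). The Scnn1a call also ended with library totals (0.186) and the Car1 call with the filter at 1 CPM (0.0518), and Car1 was at -1.43 without WT 2.

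In the pan-epithelial list 1 of 10 genes fell, Cdx2, a homeobox factor of intestinal identity (-2.03 ± 0.34, edgeR adjusted p = 0.0373), while the list median was 0.20. Cdx2 reached 199 and 165 CPM in the WT libraries, compared with 60.9 and 27.9 CPM in the Esr2-KO libraries, and its call ended without WT 1 (0.105) or WT 2 (0.0565). Its value was -2.70 without Esr2-KO 1 and -1.57 without Esr2-KO 2. Of 8 tested posterior Hox genes, Hoxd12 (5.04 ± 0.46) and Hoxb13 (2.51 ± 0.34) rose and Hoxa11 fell (-1.26 ± 0.19), whose call ended without WT 1 (0.125) or WT 2 (0.0667). Without WT 2, Hoxd12 was at 5.78 and Hoxb13 at 3.17, and without WT 1 they were at 4.55 and 2.08. Hoxd12 had 8 and 18 counts in WT against 327 and 390 in Esr2-KO. Hoxb13 was at 72.8 and 153 CPM in WT against 616 and 676 CPM in Esr2-KO. Over the 8 tested posterior Hox genes the median log2 fold change was 2.84, with 7 values positive and 1 negative. Both Esr2-KO libraries were above both WT libraries for 6 of them (27% of all tested genes). An unadjusted edgeR p under 0.05 occurred for 6 (20.6% of all genes). Hoxd13, which did not pass, had 47 and 667 counts in WT against 4137 and 4095 in Esr2-KO. Crypt markers can vary along the colon, and position within it cannot be told apart from genotype in these libraries. No gene passed among 7 of smooth muscle (median -0.099), 8 of enteric neurons and glia (-0.35), 14 of leukocytes (-0.27) or 4 of endothelium (0.16), where 0, 3, 6 and 0 had an unadjusted edgeR p under 0.05 (20.6% of all genes). Nor did any pass among 5 tested genes of the small intestine or 16 tested acinar genes, where 4 and 16 had an unadjusted edgeR p under 0.05, against the same 20.6%. The summed level of the small intestinal list was 765 and 908 CPM in WT against 215 and 67.8 CPM in Esr2-KO. Most of it was Fabp2, at 717 and 826 CPM in WT against 166 and 19.9 CPM in Esr2-KO. Of the 5 tested genes 3 had negative and 2 positive log2 fold changes, and 4 others were not tested. Rbp2 was among the positive ones, at 20.1 and 24.5 CPM in WT against 35.3 and 38.7 CPM in Esr2-KO.

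**Figure D4:**
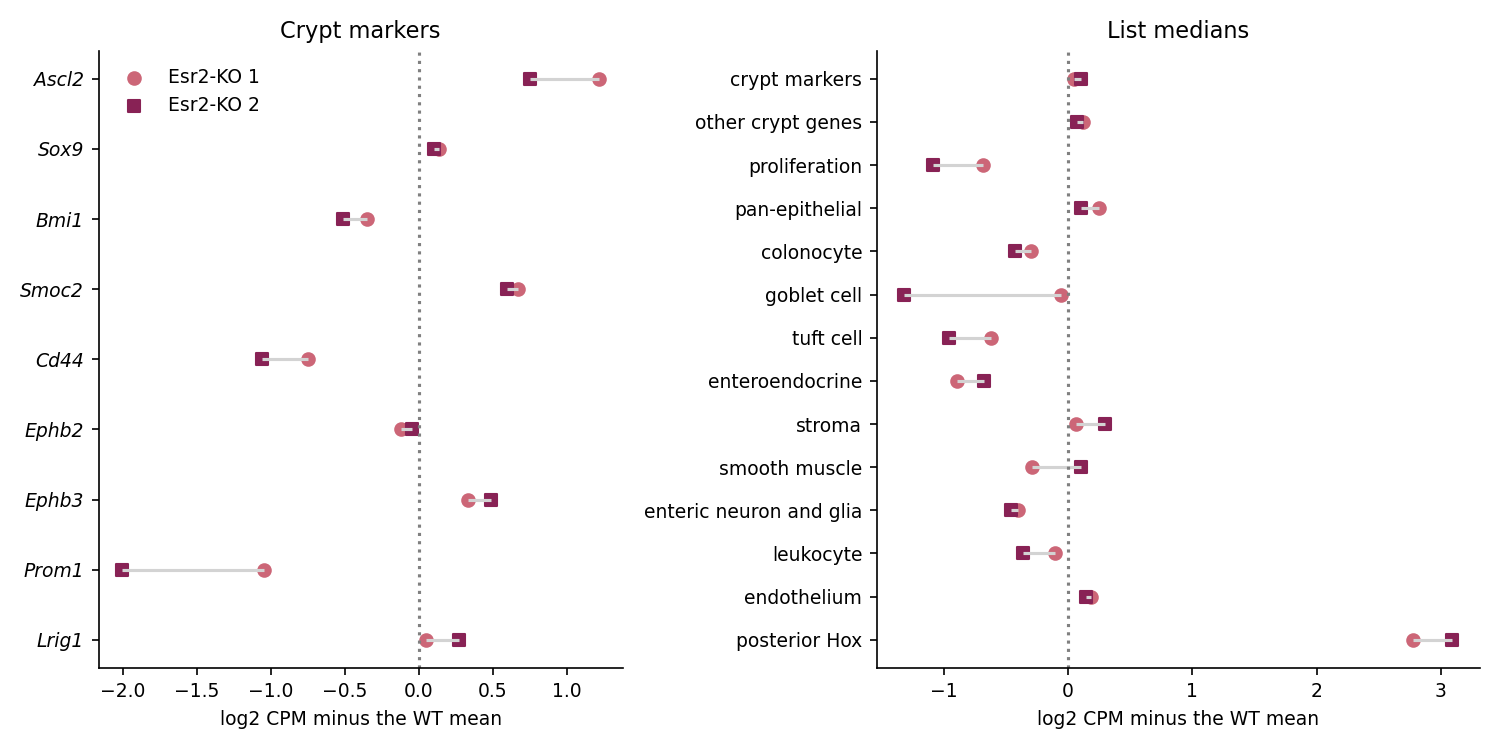
Log2(CPM + 0.5) of each Esr2-KO library minus the WT mean, for the 9 tested members (left) and for the median of each gene list (right). Circles are Esr2-KO 1 and squares Esr2-KO 2, and Prom1 lies at -1.05 and -2.01 while the goblet cell median lies at -0.054 and -1.32.

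The genes of the lists whose pattern over the 4 libraries was most like that of the called members were sought by the root mean square difference of centred log2 CPM, with no pseudocount, among 203 genes counted in every library. For Smoc2 these were the hormone gene Insl5 (0.069), the macrophage gene Cd68 (0.096) and the epithelial factor gene Elf3 (0.11). With 0.5 CPM added before the log, the Wnt feedback gene Rnf43, which had 19 to 40 counts per library, came first (0.032) and Elf3 was not among the 3. For Cd44 they were the tuft cell gene Dclk1 (0.088), Aurkb of mitosis (0.11) and Cd24a (0.13). With 4 libraries this describes likeness of values only.

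**Figure D5:**
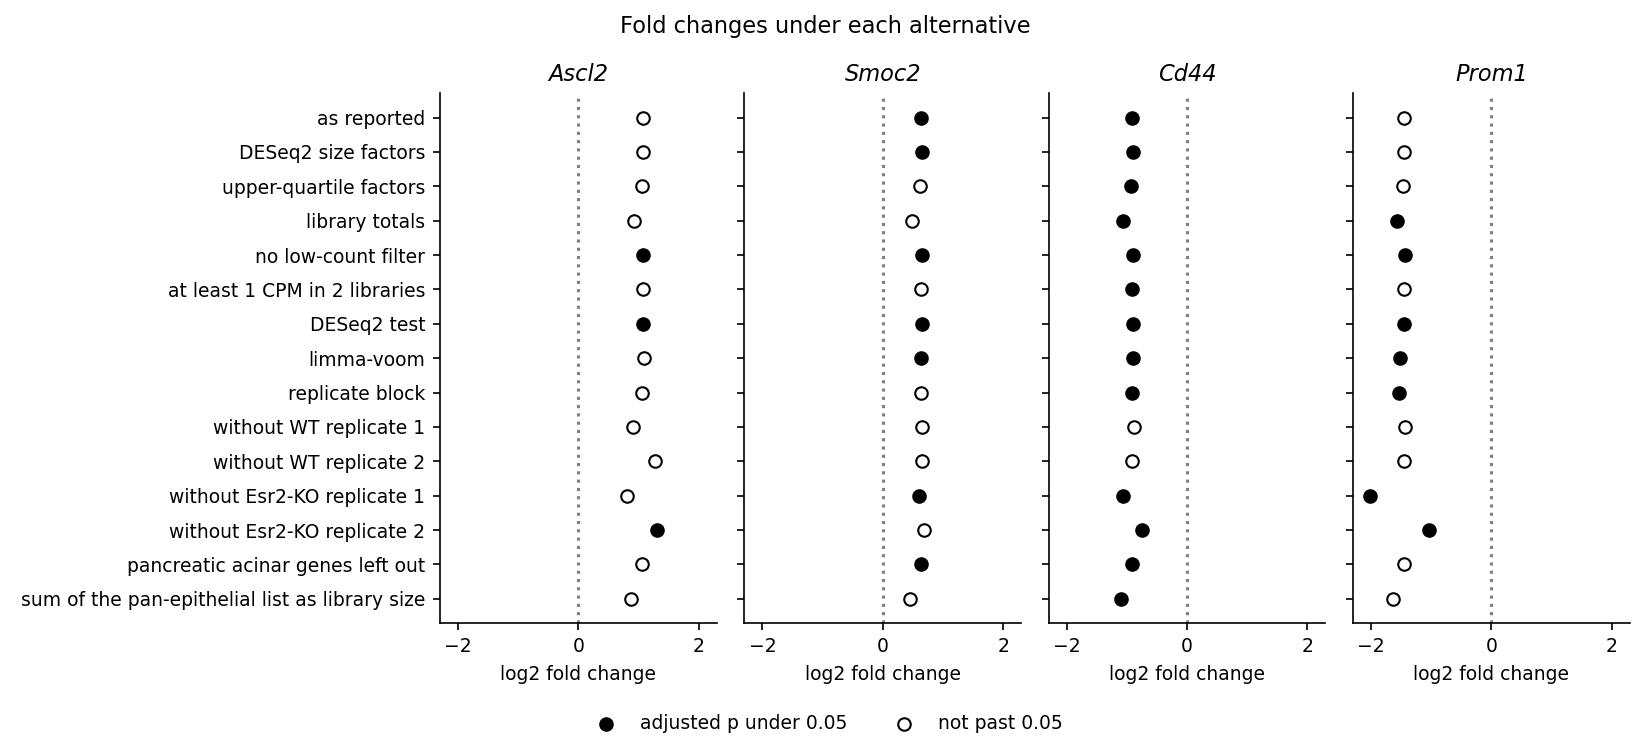
Log2 fold change of Ascl2, Smoc2, Cd44 and Prom1 as reported and under 14 alternatives, filled where the adjusted p was under 0.05. The direction was the same throughout for these 4 genes, and Cd44 passed in 12 of the 14.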

How the data were processed

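Counts per gene symbol were used as deposited by the authors, as whole numbers without normalization. Per the labels' protocols, total RNA was extracted with Trizol, depleted of rRNA and made into directional NEBNext Ultra libraries, and HISAT2 and mm10 are the aligner and build per the submitters' processing notes. Which program, annotation and strand setting produced the counts was not stated. Series text speaks of triplicates, and 2 libraries per group were analysed here.

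Genes were kept by filterByExpr (minimum count 10, minimum total 15), scaled by TMM and tested in edgeR 4.0.16 (R 4.3.3, quasi-likelihood test on the whole table, Benjamini-Hochberg adjustment, threshold 0.05). The common biological coefficient of variation was 0.233. Intervals are 95% intervals of the fit. Fits with 1 library left out keep 1 library in that group, so their p-values take the spread from the other group only. Counts differed within WT and within Esr2-KO by more than sampling noise (chi-square per degree of freedom 39.7 and 478). These values include the acinar genes, which took 18.9% of the counts of Esr2-KO 2 and 0.157% of those of Esr2-KO 1. The value of 478 is therefore no measure of the spread of the other genes. Libraries of 30826790 to 33709643 counts give a floor of 3 counts, covering counting error only. Alternatives used DESeq2 1.42.0, limma 3.58.1, other scalings, filters and left-out libraries, and the pan-epithelial scaling was added after seeing the data. The procedure was also run on simulated data, drawn with the same dispersion for all genes and without the acinar excess of Esr2-KO 2. That run therefore does not check the procedure under the spread of these libraries. Coordinates, exon lengths and promoters come from GENCODE M21 and RefSeq on GRCm38, the build of the files.

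Members and lists were chosen with earlier results of these data known. Named are the members, per list up to 2 genes past the threshold with the largest change or the 1 with the smallest p where a result turns on it, and 3 genes of like pattern per called member (Rnf43, outside this, after its values were seen). Msi1, Axin2, Guca2b, Scnn1a and Hoxa11 were named after their values were seen.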

Additional observations from a re-analysis of the deposited data

How the results depend on the processing

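Of 126 recomputed member values, 122 had the sign of the reported one. With library totals the values were -0.040 for Sox9, -0.019 for Lrig1, 0.48 for Smoc2 (not past the threshold) and -1.57 for Prom1 (past it), with a member median of -0.040 and 695 genes called against 462. The pan-epithelial scaling gave -0.067 for Sox9, -0.028 for Lrig1, 0.45 for Smoc2 (not past), a member median of -0.067 and 1 member called. These scalings moved the median of all genes by -0.16 and -0.19, and relative to it Sox9 was at 0.13 and 0.12 and Lrig1 at 0.15 and 0.16. Smoc2 was also not past the threshold with upper-quartile factors (0.62) or the filter at 1 CPM in 2 libraries (0.64), each with 1 member called. Without a low-count filter Ascl2 (1.08) and Prom1 (-1.44) passed, with 4 members and 1916 genes called. With DESeq2 they passed at 1.07 and -1.45, with 4 members and 1693 genes, and with limma-voom Prom1 passed at -1.52. At a threshold of 0.10, 4 members and 1245 genes passed. The causes were not tested.

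With the replicate number as a block, Smoc2 was at 0.64 (adjusted p = 0.0865) and Prom1 at -1.53 (0.0394), and 490 genes were called. Car1 (0.0742) and Scnn1a (0.0662) were not past the threshold there. Deviations of same-numbered libraries from their group means correlated at -0.084 across 17169 genes. With 2 libraries per group this cannot tell whether same-numbered libraries share a batch or preparation.

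Leaving out each library in turn gave 0.61 to 0.68 for Smoc2, -1.07 to -0.75 for Cd44, -2.01 to -1.04 for Prom1 and 0.81 to 1.30 for Ascl2. The member median ran from 0.048 to 0.11, the members called from 0 to 3 and the genes called from 165 to 1804. Myocd ran from -0.62 to 0.046, where it turned without WT 1. Axin2, at -0.0069 as reported, was at 0.0028 without a filter and ran from -0.15 to 0.13 with libraries left out. Of 460 values of 33 named or eligible list genes, 392 kept direction and side of the threshold, 25 lost and 39 gained a call, and 4 turned. Olfm4, at 1 count per library, was not tested in the reported fit.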
